A study of Homo sapiens with 2 samples.

Results

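The peptidyl-prolyl isomerase genes other than FKBP5 were examined in FKBP5 knockdown cells. The group holds 31 genes out of 60683 in the count table. Members were named as FKBPs, cyclophilins and parvulins and matched by symbol to Ensembl gene IDs. The rule uses no expression value, but the members were chosen with earlier results of these data known. By class they comprise 13 FKBPs, 17 cyclophilins and 1 parvulin. By the compartment in which the protein is mainly known, 13 were assigned to the nucleus, 8 to the endoplasmic reticulum, 7 to the cytosol and 2 to mitochondria, and 1, PPIL6, was not assigned. The samples analysed here form 1 group of 2 samples of HEK293T, an embryonic kidney line of human origin that carries large T antigen, with a stable knockdown of FKBP5 by short hairpin RNAs. Directional libraries were made from total RNA. Scrambled control cells were not analysed here, so no effect of the knockdown on any isomerase gene can be read from these values. The labels do not say which hairpin each sample carries or whether the samples came from separate cultures. The p-values below set the difference between the samples against counting error only, and that difference may be technical.

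Peptidyl-prolyl isomerases speed the cis-trans rotation of the peptide bond that precedes proline, a slow step in the folding of many proteins. Cyclophilins and FKBPs have unrelated folds. FK506 and rapamycin bind FKBPs, cyclosporin binds cyclophilins, and the drug-bound FKBP1A or PPIA proteins act on a partner that the free protein does not block. Many members join the isomerase domain to other parts, such as tetratricopeptide repeats that dock on HSP90, signals for the secretory pathway, or segments that bind the spliceosome. FKBP5, the targeted gene, encodes an HSP90-binding FKBP that keeps steroid receptors at low affinity for hormone.

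Levels are given as counts, as CPM, which are counts scaled by the authors with 1 constant per library, and as CPM per kilobase. The last divides CPM by the length of the union of a gene's exons in GENCODE 29 and is the only scale on which genes are compared with each other. Means are over the samples, with the SD (n = 2). The libraries held 9997706 counts in sample 1 and 21284648 in sample 2. The library sizes that the deposited CPM imply were larger than these totals, at 1.03756e+07 in sample 1 and 2.18542e+07 in sample 2. Intervals are 95% exact intervals and cover counting error only. All 6 genes examined for HEK293T (PAX2, LIN28B, NEFM, NEFL, SOX4 and VIM) were above 1 CPM. Their sum was 749 CPM in sample 1 and 722 in sample 2. Markers were chosen with earlier results of these data known, so they are no independent check of identity. Of 10 markers of blood, fibroblasts, endothelium and mature epithelium, 0 reached a mean of 1 CPM, and their sum was 2.80 CPM in sample 1 and 3.89 in sample 2. In bulk RNA, fewer cells that express a gene and less of its RNA per cell cannot be told apart.

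Reads of the most abundant member are hard to separate from those of a copy. The coding sequence of PPIA, 495 bases without the stop codon, differs from the processed pseudogene PPIAP22 at 2 bases, G279A and T327A, counted from 1 at the first coding base with the PPIA base first. The stretch that holds both differences is shown from coding base 268 to 327, with the differing bases in capitals. PPIA lies on the plus strand at chr7:44799780-44799839, in exon 4 of the transcript used, and PPIAP22 on the plus strand at chr21:18858046-18858105 (GRCh38).

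PPIA: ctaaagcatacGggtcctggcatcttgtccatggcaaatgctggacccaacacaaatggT

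PPIAP22: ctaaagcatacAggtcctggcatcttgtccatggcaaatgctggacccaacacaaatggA

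The coding bases before the first difference form an identical run of 278 bases. PPIAP22 had 682 counts in sample 1 and 1160 in sample 2, which equalled 6.33% of the PPIA counts in sample 1 and 5.46% in sample 2. It held most counts of the 89 annotated PPIA pseudogenes, of which 44 had a count, with 751 counts in all in sample 1 and 1339 in sample 2. Reads that could come from PPIA or a pseudogene were not told apart here. Of the stretches of 50 bases in all annotated PPIA transcripts, 91.1% are absent from every other gene's transcripts. These transcripts have an exon union of 4432 bases, far longer than the coding sequence. PPIAP22, which aligns with the coding sequence, shares 351 of the stretches. The share within the coding sequence alone is therefore lower, and it was not computed.

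FKBP1A and FKBP1B, small FKBPs made of little more than the isomerase domain, are less alike. Their coding sequences, 324 bases each, differ at 82 bases, so that 74.7% of bases are identical, and the longest identical run is 14 bases. The first 60 coding bases of each are shown, with the 13 differing bases in capitals. FKBP1A is on the minus strand of chromosome 20 (chr20:1392962-1392998 in exon 1 and chr20:1392859-1392881 in exon 2), and FKBP1B on the plus strand of chromosome 2 (chr2:24049850-24049886 in exon 1 and chr2:24053902-24053924 in exon 2; GRCh38).

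FKBP1A: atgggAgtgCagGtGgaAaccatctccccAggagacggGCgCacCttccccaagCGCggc

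FKBP1B: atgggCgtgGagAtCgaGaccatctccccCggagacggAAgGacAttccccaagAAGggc

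A copy of FKBP1A on chromosome 6, FKBP1C, is nearer, with 6 differences in 324 bases (98.1% identical). FKBP1C had 10 counts in sample 1 and 17 in sample 2, so few counts were assigned to it beside those of FKBP1A.

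Nearly the whole group of isomerase genes was detected. Of the 31 members, 30 had a mean of at least 1 CPM and 9 had at least 100 CPM. Together they took 40104 counts in sample 1 (0.401% of the library, Wilson 95% interval 0.397% to 0.405%) and 80967 counts in sample 2 (0.380%, 0.378% to 0.383%). PPIA alone held 26.9% of the members' counts in sample 1 and 26.2% in sample 2. Per kilobase, 23 members lay above the median of 5.72 CPM per kilobase of the 13244 protein-coding genes that averaged 1 CPM or more. Of the members, 12 lay above the upper quartile of these genes, 14.1 CPM per kilobase, and 3 below the lower quartile, 1.96 CPM per kilobase. FKBP5 itself had 41 counts in sample 1 and 77 in sample 2, a mean of 0.352 ± 0.0285 CPM per kilobase, and only FKBP2 was below it on that scale.

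**Figure D1:**
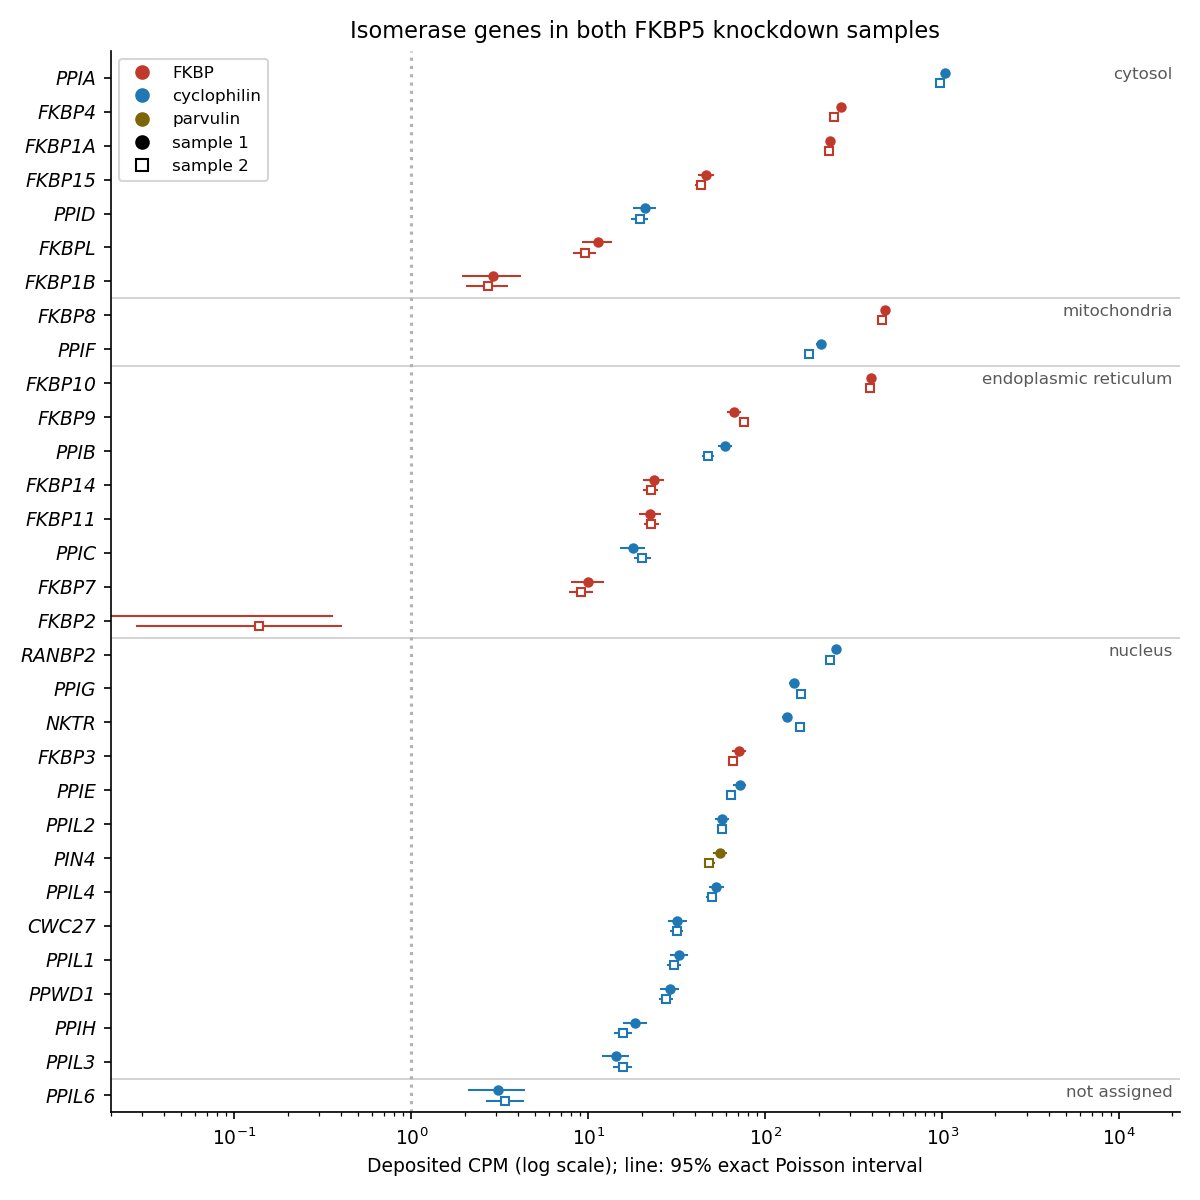
Deposited CPM (log scale) of the 31 isomerase genes in sample 1 (filled circles) and sample 2 (open squares), grouped by compartment and coloured by class, with lines for 95% exact Poisson intervals and a dotted line at 1 CPM. The 30 genes right of the dotted line range up to PPIA at 1039 CPM in sample 1 and 971 in sample 2, and FKBP2 lies alone below it, with no point in sample 1, where it had 0 counts.

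Among the cytosolic isomerases, PPIA led. PPIA, or cyclophilin A, is the main target of cyclosporin. It had 10776 counts in sample 1 and 21229 in sample 2, or 1039 CPM (95% interval 1019 to 1058) in sample 1 and 971 (958 to 985) in sample 2. The counting intervals did not overlap, and sample 2 was the lower. Per kilobase its mean was 227 ± 10.7 CPM, the highest of the group.

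FKBP1A, the rapamycin- and FK506-binding protein of the mTOR and calcineurin complexes, had 2423 counts in sample 1 and 4988 in sample 2. This amounts to 234 CPM in sample 1 and 228 in sample 2, a mean of 231 ± 3.74 CPM, and the intervals overlapped. FKBP1B, which binds the cardiac ryanodine receptor, had 30 counts in sample 1 and 59 in sample 2, or 2.89 CPM in sample 1 and 2.7 in sample 2. Per kilobase FKBP1A stood at 89.6 ± 1.45 CPM and FKBP1B at 1.67 ± 0.0808 CPM, a ratio of 53.7, or 81.5 when length was that of the longest transcript. In FKBP1B, 27.7% of exon bases also lie in exons of MFSD2B on the same strand, a gene with 12 counts in sample 1 and 20 in sample 2. FKBP15, a large FKBP of early endosomes, measured 46.2 CPM in sample 1 and 43.1 in sample 2, with overlapping intervals.

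The HSP90-docking isomerases of the cytosol were led by FKBP4, the closest paralog of FKBP5, which favours hormone binding by steroid receptors. FKBP4 had 2797 counts in sample 1 and 5378 in sample 2, or 270 CPM (260 to 280) in sample 1 and 246 (240 to 253) in sample 2. Sample 2 was the lower and the intervals did not overlap. PPID, cyclophilin 40, which carries the same kind of repeat, reached 20.8 CPM in sample 1 and 19.5 in sample 2. FKBPL, an FKBP-like HSP90 partner, stood at 11.3 CPM in sample 1 and 9.56 in sample 2, and for both genes the samples overlapped in their intervals. Per kilobase FKBP4 was at 49.8 ± 3.21 CPM, PPID at 8.03 ± 0.374 CPM and FKBPL at 7.75 ± 0.901 CPM. The ratio of FKBP4 to PPID was 6.20 by the union of exons and 45.2 by the median coding transcript, so FKBP4 was the higher by every length used but by an uncertain factor. The ratio of FKBP4 to FKBP5 per kilobase was between 136 and 724 over the same 3 lengths.

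Both mitochondrial isomerases were among the 6 highest members per kilobase. FKBP8, a tail-anchored FKBP of the outer membrane that binds BCL2, had 4915 counts in sample 1 and 10031 in sample 2, or 474 CPM in sample 1 and 459 in sample 2. Its intervals overlapped, and its mean was 161 ± 3.59 CPM per kilobase. PPIF, the matrix cyclophilin D that regulates the permeability transition pore, had 2132 counts in sample 1 and 3884 in sample 2, or 205 CPM (197 to 214) in sample 1 and 178 (172 to 183) in sample 2. PPIF was lower in sample 2, with intervals apart, and had a mean of 71.7 ± 7.34 CPM per kilobase.

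The isomerases of the endoplasmic reticulum ranged from FKBP10, at a high level, to FKBP2, with almost no counts. FKBP10, a chaperone of procollagen, had 4122 counts in sample 1 and 8589 in sample 2, or 397 CPM in sample 1 and 393 in sample 2. Its mean of 92.5 ± 0.706 CPM per kilobase of exon union was behind those of PPIA and FKBP8, a place that changed with the length used, and its samples overlapped. FKBP9, the closest relative of FKBP10, measured 66.6 CPM (61.7 to 71.8) in sample 1 and 75.4 (71.8 to 79.1) in sample 2, and the intervals were apart by less than the rounding shown, with sample 2 the higher. Of its stretches of 50 bases, 74.0% are absent from other genes, and the pseudogene FKBP9P1, which shares 25.9% of them, had 9 counts in sample 1 and 12 in sample 2. The remaining FKBPs of this compartment with detectable levels were lower than FKBP9 per kilobase. FKBP14, whose loss causes a kyphoscoliotic form of Ehlers-Danlos syndrome, reached 23.4 CPM in sample 1 and 22.5 in sample 2. FKBP7, which binds the luminal chaperone BiP, stood at 9.93 CPM in sample 1 and 9.11 in sample 2. FKBP11, a membrane-bound FKBP that is abundant in secretory cells, measured 22.4 CPM in sample 1 and 22.7 in sample 2. For FKBP14, FKBP7 and FKBP11 the samples overlapped within counting error, and per kilobase all 3 genes lay between 3.09 and 4.55 CPM.

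PPIB, cyclophilin B, which works with P3H1 and CRTAP in the complex that modifies procollagen prolines, had 617 counts in sample 1 and 1037 in sample 2. This amounts to 59.5 CPM (54.9 to 64.3) in sample 1 and 47.5 (44.6 to 50.4) in sample 2, a mean of 53.5 ± 8.50 CPM. Sample 2 was the lower, the intervals were apart, and no other member tested differed by as large a factor. SNX22 lies opposite to 27.2% of the PPIB exon bases and had 200 counts in sample 1 and 401 in sample 2. Since the strand setting of the counting is not given, the part of antisense reads in the PPIB counts was not tested. PPIC, cyclophilin C, reached 17.8 CPM in sample 1 and 20.2 in sample 2, and its intervals overlapped. Per kilobase PPIB was at 28.0 ± 4.45 CPM and PPIC at 9.07 ± 0.807 CPM.

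FKBP2, a small luminal FKBP, was the only member below 1 CPM. It had 0 counts in sample 1, which allows up to 0.356 CPM by the exact interval, and 3 counts in sample 2, or 0.137 CPM (0.0283 to 0.401). The samples could not be told apart at this depth. In RefSeq (GRCh38.p14) the protein-coding gene LOC114841035, on chromosome 11 from 64241095 to 64244132, covers 99.9% of the span of FKBP2. Its neighbours on that chromosome were measured, with 498 counts in sample 1 and 954 in sample 2 for VEGFB and with 1836 counts in sample 1 and 3466 in sample 2 for PPP1R14B. Whether the overlap with LOC114841035 took reads from FKBP2 in the authors' counting was not tested, so its value is a count assigned to FKBP2 and not a measure of absence.

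The nuclear isomerases ranged from 5.12 CPM per kilobase in PPIL3 to 30.2 CPM per kilobase in FKBP3. FKBP3, a nuclear FKBP that binds nucleic acids, stood at 71.0 CPM in sample 1 and 65.5 in sample 2, with overlapping intervals, and 28.9% of its exon bases lie opposite to PRPF39. RANBP2, a giant nucleoporin with a cyclophilin domain, Ran-binding domains and SUMO ligase activity, had 2601 counts in sample 1 and 5050 in sample 2, or 251 CPM (241 to 261) in sample 1 and 231 (225 to 238) in sample 2. Its intervals were apart, with sample 2 the lower. The 7 RGPD genes, which share sequence with RANBP2, had 125 counts in sample 1 and 285 in sample 2, equal to 4.81% of the RANBP2 counts in sample 1 and 5.64% in sample 2. Of the stretches of 50 bases in RANBP2, 72.8% are absent from other genes.

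PPIG and NKTR, large cyclophilins with arginine- and serine-rich tails like those of splicing factors, were higher in sample 2. PPIG had 1509 counts in sample 1 and 3496 in sample 2, or 145 CPM (138 to 153) in sample 1 and 160 (155 to 165) in sample 2. NKTR, first described on natural killer cells, had 1382 counts in sample 1 and 3425 in sample 2, or 133 CPM (126 to 140) in sample 1 and 157 (152 to 162) in sample 2. For both genes the intervals of the samples were apart. Per kilobase PPIG averaged 20.7 ± 1.39 CPM and NKTR 8.35 ± 0.958 CPM.

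The other nuclear cyclophilins are components or companions of the spliceosome, and in each the counting intervals of the samples overlapped. Their CPM ratios, sample 2 over sample 1, ran from 0.855 in PPIH to 1.09 in PPIL3. PPIE, which has an RNA recognition motif, measured 71.6 CPM in sample 1 and 64.4 in sample 2. PPIL2, which has a U-box like those of ubiquitin ligases, reached 56.9 CPM in sample 1 and 56.8 in sample 2. PPIL4, which also binds RNA, stood at 52.8 CPM in sample 1 and 49.8 in sample 2. In these 3 genes the counting intervals of the samples overlapped. PPIL1, a partner of the splicing factor SNW1, measured 32.7 CPM in sample 1 and 30.6 in sample 2. CWC27, whose cyclophilin domain is thought to have lost its enzyme activity, reached 31.8 CPM in sample 1 and 31.5 in sample 2. PPWD1, a cyclophilin with WD repeats, stood at 28.8 CPM in sample 1 and 27.6 in sample 2. None of these genes separated the samples either. PPIH, which binds PRPF4 in the small nuclear ribonucleoproteins, measured 18.4 CPM in sample 1 and 15.7 in sample 2, and PPIL3, a small spliceosomal cyclophilin, reached 14.3 CPM in sample 1 and 15.6 in sample 2, both with overlapping intervals. PIN4, a small parvulin linked to ribosome assembly, stood at 55.6 CPM (51.2 to 60.3) in sample 1 and 48.3 (45.4 to 51.3) in sample 2, with intervals that just overlapped. PPIL6, the member with no assigned compartment, had 32 counts in sample 1 and 74 in sample 2, or 3.08 CPM in sample 1 and 3.39 in sample 2, again with overlapping intervals.

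Per kilobase the order was steep at both ends and flat in the middle. The 6 highest were PPIA, FKBP8, FKBP10, FKBP1A, PPIF and FKBP4, and these 6 held 67.7% of the members' summed CPM in sample 1 and 66.8% in sample 2. The 3 lowest were FKBP1B, PPIL6 and FKBP2. Both sets held the same genes when length was taken as the longest transcript or the median coding transcript. Of 30 pairs of neighbours in the order, 12 overlapped in the range of their sample values. Counting error was left out of this comparison. From PPIC down to PPIL2 each of 8 genes overlapped with the next, within 9.07 and 7.41 CPM per kilobase, in the order PPIC, CWC27, PPIE, NKTR, PPID, FKBPL, PPWD1 and PPIL2, so neighbours in this run could not be ranked. PPIG, RANBP2 and PPIL4 likewise ran into each other, at 20.7, 19.6 and 19.4 CPM per kilobase. By the union of exons FKBP10 was slightly above FKBP1A in each sample, with counting error left out. Sample 1 had 93.0 CPM per kilobase for FKBP10 and 90.6 for FKBP1A, and sample 2 had 92.0 for FKBP10 and 88.6 for FKBP1A. By the longest transcript their means were 139.8 for FKBP10 and 142 for FKBP1A, in the opposite order. The rank of single genes depended on length, since 1 member moved by 5 or more places with the longest transcript and 9 did with the median coding transcript.

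**Figure D2:**
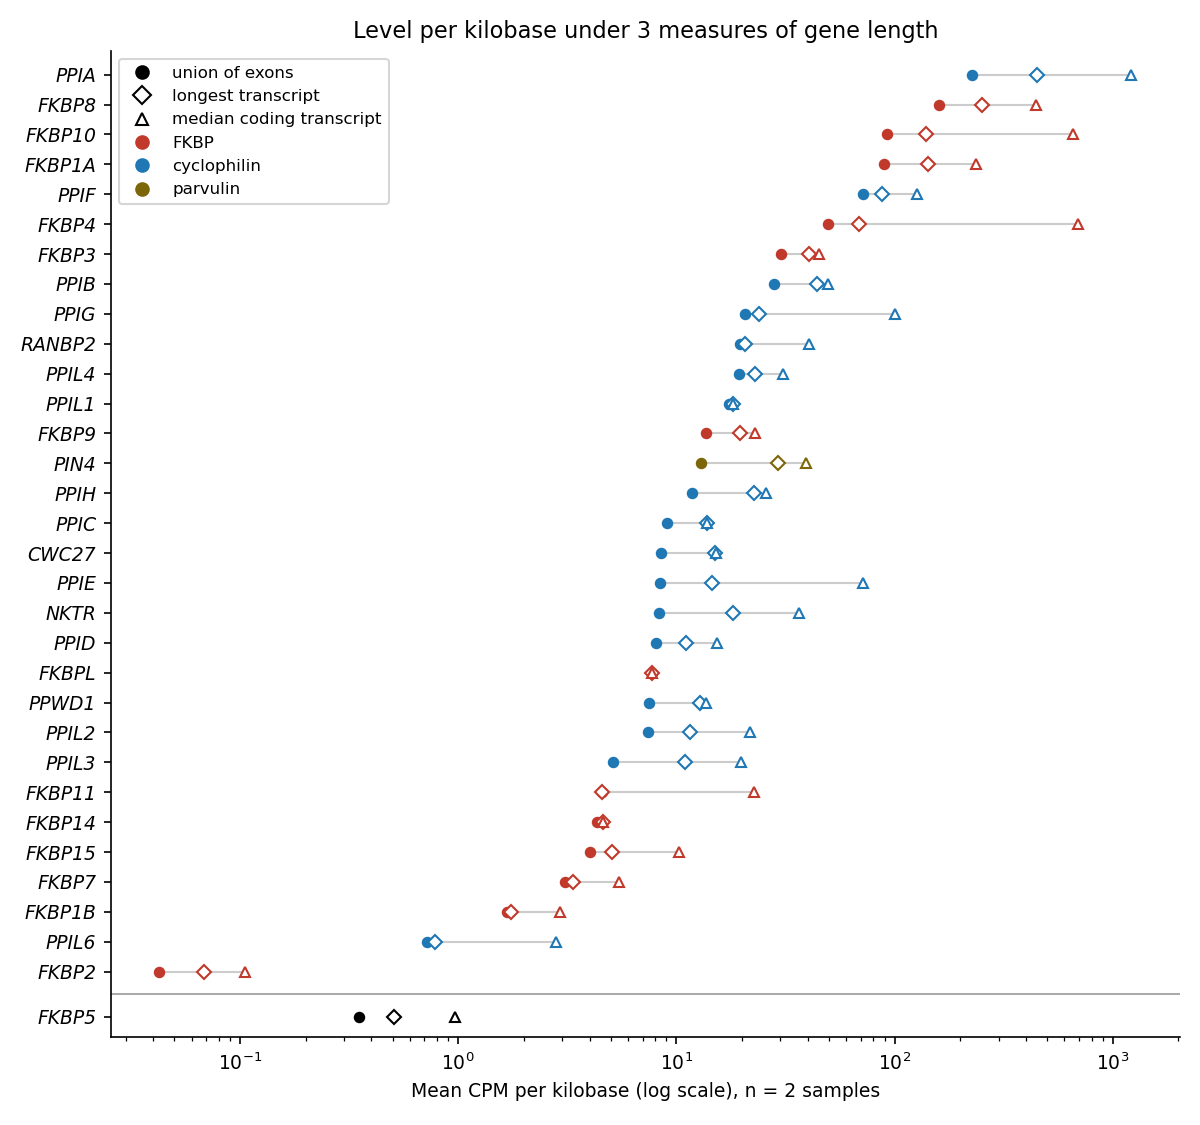
Mean CPM per kilobase (log scale, n = 2 samples) of each isomerase gene and of FKBP5, with length taken as the union of exons (circles), the longest transcript (diamonds) or the median coding transcript (triangles), coloured by class. PPIA is at the top and FKBP2 at the bottom by the union of exons, and FKBP4, PPIE and FKBP10 are among the genes that shift most between lengths.

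The classes overlapped widely in level. The median was 7.75 CPM per kilobase over the 13 FKBPs, which ranged up to 161 in FKBP8, and 9.07 CPM per kilobase over the 17 cyclophilins, which ranged from 0.722 in PPIL6 to 227 in PPIA. PIN4, the parvulin, stood at 13.0 ± 1.29 CPM per kilobase. By compartment the median was 8.03 CPM per kilobase in the cytosol, 6.81 in the endoplasmic reticulum and 11.8 in the nucleus. Over FKBP8 and PPIF in mitochondria it was 116. By the union of exons the nuclear FKBP, FKBP3, lay above every nuclear cyclophilin, the highest of which was PPIG at 20.7 CPM per kilobase. By the median coding transcript PPIG at 101 and PPIE at 71.8 CPM per kilobase lay above FKBP3 at 45.1. In the endoplasmic reticulum the 6 FKBPs had a median of 4.43 CPM per kilobase although FKBP10 was the highest gene there. Medians of classes and compartments are descriptions of few genes, and their differences were not tested.

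The samples were compared gene by gene with a 2-sided exact binomial test of the counts against the share that the deposited library sizes imply. Adjustment (Benjamini-Hochberg) was over the 15530 genes that averaged 1 CPM or more. This test sets 2 libraries of 1 group against each other and not conditions. With an adjusted p under 0.05, 7 of the 30 members tested differed, against 8.97% of all genes tested. Sample 2 was higher in 2 of them (4.41% of all genes) and lower in 5 (4.56% of all genes). The median log2 ratio of CPM + 1, sample 2 over sample 1, was -0.08 over the members and 0.01 over all genes, and 23 of the 30 members were lower in sample 2 and 7 higher. Of all genes tested 53.1% were higher in sample 2, and of those with at least 100 CPM 42.3% were, with a median log2 ratio of -0.02.

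PPIG and NKTR, with tails rich in arginine and serine, were higher in sample 2, with a CPM ratio of 1.10 (95% interval 1.04 to 1.17) for PPIG and 1.18 (1.11 to 1.25) for NKTR. Their adjusted p from the exact binomial test was 0.0272 for PPIG and 2.13e-05 for NKTR. The cyclophilins lower in sample 2 were PPIB, with a ratio of 0.798 (0.722 to 0.883), PPIF, with 0.865 (0.820 to 0.912), RANBP2, with 0.922 (0.879 to 0.967), and PPIA, with 0.935 (0.914 to 0.957). Exact binomial adjusted p was 0.000481 for PPIB, 8.16e-06 for PPIF, 0.0143 for RANBP2 and 1.94e-06 for PPIA. FKBP4 was the FKBP called, at a ratio of 0.913 (0.872 to 0.956) and an exact binomial adjusted p of 0.00294. FKBP9, at 1.13 (1.03 to 1.24), and PIN4, at 0.869 (0.784 to 0.963), missed the threshold with exact binomial adjusted p of 0.0637 and 0.0663. The call for PPIG was lost, with a log2 ratio of 0.12 and an adjusted p of 0.0590, when the column totals replaced the deposited library sizes in the exact test. PIN4 then passed, at -0.21 and 0.0427.

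The 7 genes that differed are protein-coding genes at separate places of the genome (GRCh38, GENCODE 29). The annotation puts PPIG (ENSG00000138398) on chromosome 2 from 169584340 to 169641406 on the plus strand and NKTR (ENSG00000114857) on chromosome 3 from 42600614 to 42648741 on the plus strand. It places PPIB (ENSG00000166794) on the minus strand of chromosome 15, between 64155812 and 64163205, and PPIF (ENSG00000108179) on chromosome 10 from 79347469 to 79355337 on the plus strand. Further, RANBP2 (ENSG00000153201) lies on chromosome 2 from 108719481 to 108785811 on the plus strand, and PPIA (ENSG00000196262) on chromosome 7 from 44796680 to 44824564 on the plus strand. FKBP4 (ENSG00000004478) lies on chromosome 12 from 2794953 to 2805423 on the plus strand.

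**Figure D3:**
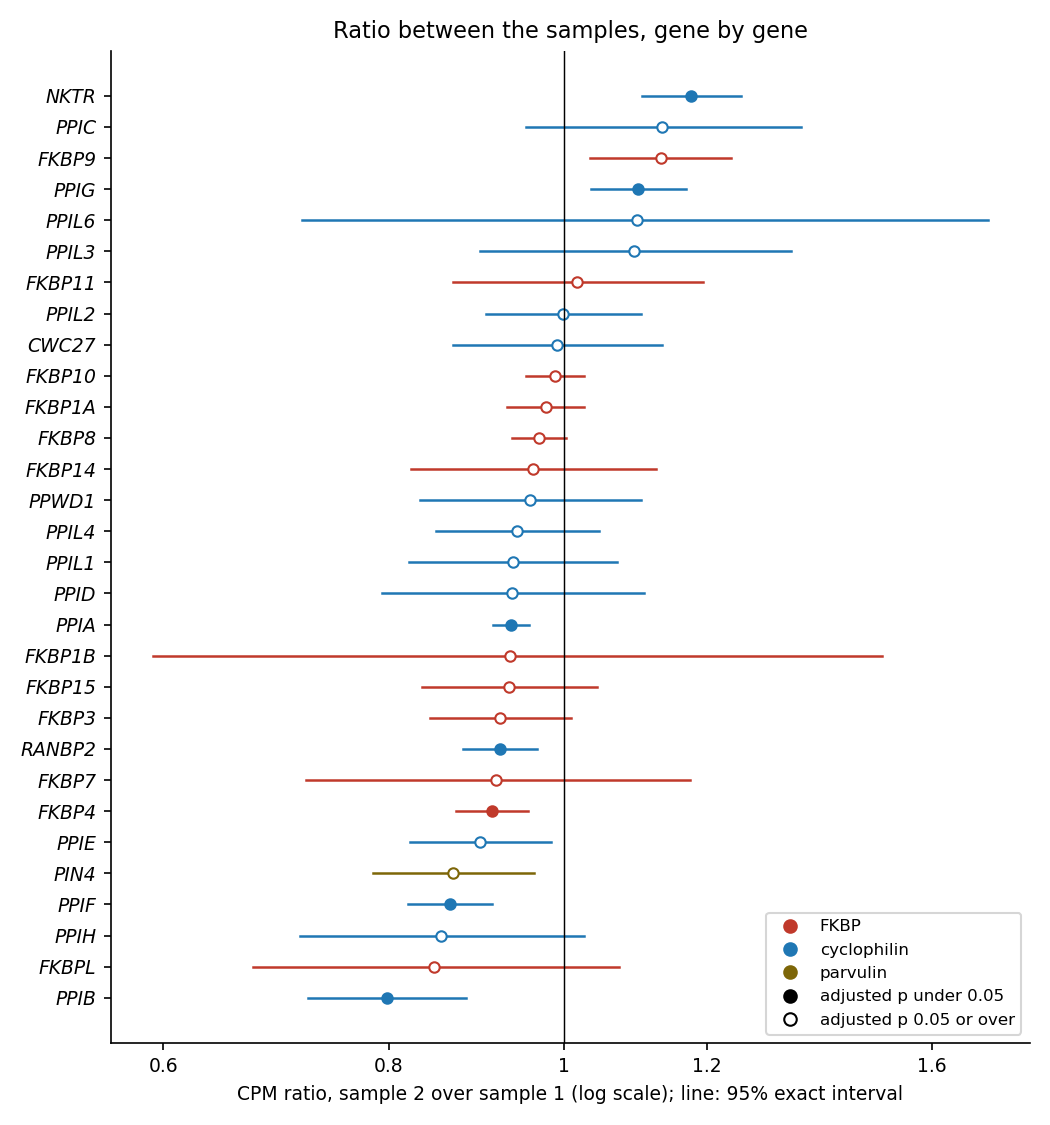
Ratio of CPM, sample 2 over sample 1 (log scale), for the 30 isomerase genes tested, with lines for 95% exact intervals, coloured by class and filled where the adjusted p was under 0.05. The 7 filled genes run from PPIB at 0.798 to NKTR at 1.18, and the sparsely counted FKBP1B and PPIL6 have the widest lines.

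All of these differences were small. Of the 30 members tested, 21 had samples within 1.1-fold of each other and 29 within 1.2-fold, and the largest difference, in PPIB, was 1.25-fold. The share of genes called was greater at higher levels. Of the 9 members with at least 100 CPM, 6 were called, and so were 26.5% of the 2282 genes at that level. Of the 18 members between 10 and 100 CPM, PPIB alone was called, against 8.33% of genes there. Of the 3 members between 1 and 10 CPM, FKBP7, FKBP1B and PPIL6, 0 were called, against 2.28% of genes. FKBP8, FKBP10 and FKBP1A, deeply counted as they were, had ratios of 0.969, 0.989 and 0.977, with exact binomial adjusted p of 0.283, 0.821 and 0.660. For these 3 genes the 95% interval of the ratio lay within 0.931 and 1.03.

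**Figure D4:**
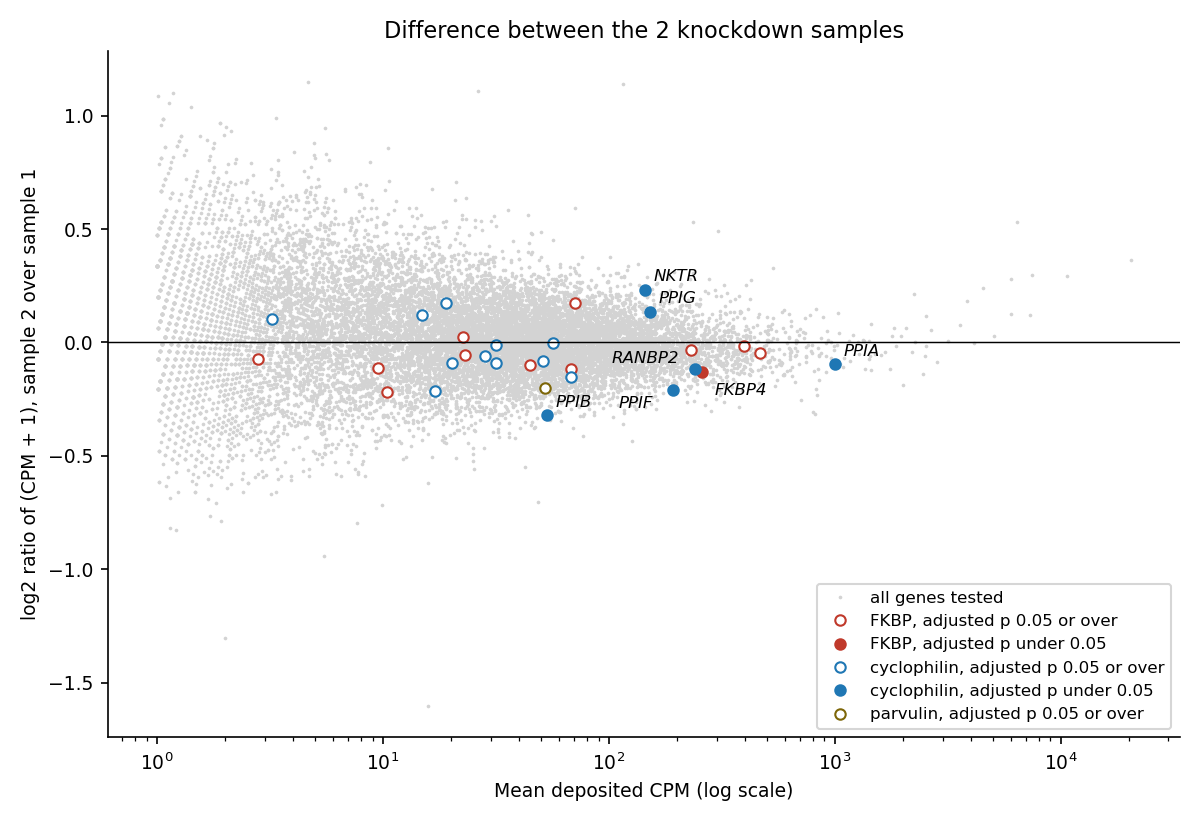
Log2 ratio of CPM + 1, sample 2 over sample 1, against mean CPM (log scale) for the 15530 genes tested (grey) and the 30 isomerase genes tested (coloured by class, filled where the adjusted p was under 0.05). The filled isomerases other than PPIB lie at or above 100 CPM, where 26.5% of all genes were called, and all isomerases lie between -0.32 and 0.23.

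Genes that work with the isomerases were measured in the same libraries, as 8 lists of partners. Of 60 partners measured, 56 were tested, and the exact test called 1 higher (4.41% of all genes) and 11 lower in sample 2 (4.56% of all genes). Every partner called had a mean of over 100 CPM, where 26.5% of all genes were called in either direction. Of the 6 targets of drug-bound FKBP1A and PPIA (calcineurin subunits, MTOR and its companion RPTOR), 0 were called. MTOR measured 244 CPM in sample 1 and 244 in sample 2, and RPTOR 108 CPM in sample 1 and 107 in sample 2. The 6 calcium release channels, the partners of the small FKBPs, were not called either. ITPR3 reached 101 CPM in sample 1 and 111 in sample 2, and ITPR1 had a level of 38.4 CPM in sample 1 and 36.5 in sample 2.

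Of the 7 HSP90 genes and co-factors, 4 were called lower in sample 2, against 4.56% of all genes at any level and 26.5% called in either direction at 100 CPM and over. HSP90AA1 stood at 2572 CPM in sample 1 and 2471 in sample 2, and HSP90AB1 measured 1541 CPM in sample 1 and 1487 in sample 2, differences of less than 1.1-fold. In the collagen list, where 9 genes were tested, CRTAP of the PPIB complex was called higher, with 206 CPM in sample 1 and 231 in sample 2. P4HB, the protein disulfide isomerase that is also a prolyl hydroxylase subunit, was called lower, with 372 CPM in sample 1 and 344 in sample 2. PPIB and CRTAP thus had ratios on opposite sides of 1, 0.798 for PPIB and 1.12 for CRTAP. P3H1, the remaining member of that complex, reached 114 CPM in sample 1 and 115 in sample 2 and was not called.

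Of 10 spliceosome partners, 1 was called lower. The core splicing factors PRPF8 and SNRNP200 were not called, with 1777 CPM in sample 1 and 1810 in sample 2 for PRPF8 and 687 CPM in sample 1 and 703 in sample 2 for SNRNP200. Of 9 mitochondrial partners, 1 was called lower, and the named genes were VDAC1, the outer-membrane channel, with 412 CPM in sample 1 and 400.5 in sample 2, and SLC25A5, an adenine nucleotide carrier, with 356 CPM in sample 1 and 339 in sample 2. In the Ran and SUMO list, which goes with RANBP2, 3 of 5 were called lower, against the same shares of all genes, and all 3 had over 100 CPM. These included RAN, with 651 CPM in sample 1 and 619 in sample 2, and RANGAP1, with 496 CPM in sample 1 and 448 in sample 2. Of 4 genes tested among other isomerases and relatives with tetratricopeptide repeats, 1 was called lower. PTPA, a phosphatase activator with isomerase activity, stood at 159 CPM in sample 1 and 147 in sample 2 and was not called.

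The 31 members lie on 18 chromosomes. In 26 members at least 95% of stretches of 50 bases, pooled over all annotated transcripts of the gene, are absent from other genes. The exceptions were RANBP2 at 72.8%, FKBP9 at 74.0%, FKBP1B at 78.5%, FKBP1A at 78.9% and PPIA at 91.1%. Exons of 5 members overlap another gene's on the same strand, and those of 17 do so on the opposite strand. Start-site windows of 300 bases (250 before and 50 after the start, RefSeq GRCh38.p14) were found for 24 members, 32 windows in all. Each window was searched for the letters CG, which read the same on both strands. The count ran from 13 to 45 with a median of 26.5, against a median of 14 over all 35116 windows, of which 51.7% held at least 13. Those windows were not limited to genes detected here, so the contrast cannot be read as a trait of isomerase genes. No window was found for FKBP4, FKBP8, FKBP10, FKBP14, FKBPL, PPIE or PPIG.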

How the data were processed

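RNA-seq of 2 FKBP5 knockdown samples was analysed as 1 group. The deposited counts are whole-number reads by Ensembl gene ID and were not normalized. The deposited CPM equal those counts times 1 constant per library, so whole reads were recovered for every value within a tolerance of 1e-06. STAR 2.7.7a, edgeR and GRCh38 are named in the submitters' processing notes. The program that counted reads, the strand it used, how it handled ambiguous reads, and the gene models are each not given in the sources used here. Sample 1 totalled 9997706 counts and sample 2 totalled 21284648. No molecular identifiers are named, so intervals cover counting error only.

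The 31 members, their compartments, the 8 partner lists and the markers were chosen with earlier results of these data known. Named genes were all members, FKBP5, annotated copies and overlapping genes of members, and the 2 partners with the highest mean CPM of each list. P3H1 and the neighbours of FKBP2 were added after values were seen. One gene named by this rule is left out of the text. Symbols were found for 99.5% of gene IDs, and 96.4% of IDs were in GENCODE 29 (GRCh38), which gave lengths, coordinates and sequences. Start-site windows came from RefSeq.

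Computed here were exact Poisson intervals, Wilson intervals for shares, CPM per kilobase, and a 2-sided exact binomial test over genes averaging 1 CPM or more, with Benjamini-Hochberg adjustment and a threshold of 0.05. Log2 ratios use a pseudocount of 1 CPM, which understates low genes. The test includes no variation between cultures. It was tried on simulated Poisson counts, which hold no such variation either. That trial therefore cannot show how the test behaves between separate cultures. Tools were Python 3.11.15, pandas 2.3.3, numpy 2.4.6, scipy 1.17.1, statsmodels 0.14.6, matplotlib 3.10.9, R 4.3.3 and edgeR 4.0.16 (for TMM only). Alternatives were other scalings, filters, pseudocounts and lengths, and leaving out each sample.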

Additional observations from a re-analysis of the deposited data

How the results depend on the processing

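No paired analysis was possible because the samples form 1 group. At least 1 CPM was reached by 30 members with column totals and with either sample alone. The count of 7 members called stayed at 7 with column totals (6 shared genes, 1 higher in sample 2), TMM library sizes (7 shared) and a minimum of 5 CPM (7 shared), and was 6 (1 higher in sample 2) without a filter. TMM library sizes gave nearly the same ratios as the deposited scaling, with a log2 ratio of -0.0964 for PPIA under each. That setting is therefore no separate check of the scaling. Over all genes, column totals called 581 of 1483 higher in sample 2, against 685 of 1393 with the deposited scaling. Medians per kilobase depended on length. With the longest transcript the median was 18.2 CPM per kilobase over all members, 18.2 over cyclophilins, 11.1 in the cytosol, 9.21 in the endoplasmic reticulum, 170 in mitochondria and 18.2 in the nucleus, while that of the FKBPs was 7.75 as before. With the median coding transcript it was 23.0 over all members, 22.7 over FKBPs, 25.7 over cyclophilins, 15.4 in the cytosol, 18.2 in the endoplasmic reticulum, 285 in mitochondria and 30.9 in the nucleus. Shorter lengths raise these values by construction. With either sample alone the medians ranged from 8.87 to 9.64 over all members and over cyclophilins, from 7.11 to 8.38 over FKBPs, from 7.77 to 8.38 in the cytosol, from 6.50 to 7.11 in the endoplasmic reticulum, from 112 to 120.0 in mitochondria and from 10.9 to 12.7 in the nucleus. Among single genes, the exact binomial call for PPIG was lost and that for PIN4 gained with column totals, at log2 ratios of 0.12 and -0.21. A pseudocount of 0.1 CPM changed the direction of no member. Depth limits FKBP1B, PPIL6 and FKBP2, which had at most 74 counts in a sample, and levels of copies and overlapping genes depend on how reads were assigned.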
